A study of Mus musculus with 39 samples.

Results

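Most of the genes described here encode the machinery that makes ribosomes. The stand-alone pseudouridine synthases Trub1 and Trub2 are listed with them, and Trub2 is a mitochondrial enzyme. In all, 47 genes are listed and grouped by their known roles. No measured value enters the rule that selects them, but the list was drawn up with earlier results of these arrays known. The genes were found on the arrays by the gene name of each probe, brought up to the current symbol. After a detection filter, 46 of the 47 could be tested, out of 15914 genes tested in all, and the exception, Nop16, is described from its unfiltered signals. The study asked how inhibition of histone deacetylases (HDACs) in the fertilized egg affected transcription in the embryo. RNA was measured on 39 single-colour mouse microarrays that covered 13 conditions with 3 arrays each, and the RNA of each array came from 100 pooled oocytes or embryos.

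Oocytes of B6D2F1 females aged 8 to 9 weeks were fertilized in vitro with sperm of ICR males aged 15 to 20 weeks. Treated embryos were held in 10 µM T247, an inhibitor of HDAC3, or 10 µM MGCD0103, an inhibitor of mainly class I HDACs, for 6 h from 4 h post-insemination and were then returned to plain medium. Control embryos were untreated, and no vehicle is stated for them. Embryos of the control and T247 groups were collected at 12 h (1-cell), 24 h (2-cell) and 48 h (4-cell) post-insemination. MGCD0103-treated embryos were collected at the first 2 of these times. The paper reports that embryos treated with MGCD0103 failed to reach the stage of the last collection, and it proposes that T247 delays development. The part of developmental progress in the differences between treated and control embryos was not tested. The GV, MII, 8-cell, morula and blastocyst stages were untreated only. Slides 1 to 3 carried every untreated sample, slides 4 and 5 carried T247 and slide 6 carried MGCD0103, and slide and treatment therefore cannot be told apart. In pooled embryos, fewer responding embryos and less RNA per embryo cannot be told apart either.

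Ribosomes are built in the nucleolus. RNA polymerase I (Pol I) transcribes the precursor of the ribosomal RNAs (rRNA), small nucleolar ribonucleoproteins (snoRNPs) methylate and pseudouridylate it, the small subunit (SSU) processome folds and cleaves it, and further factors complete the 40S and 60S subunits. The growing oocyte makes a large store of ribosomes, its nucleolus falls silent before ovulation, and the mouse embryo rebuilds active nucleoli from the 2-cell stage, after zygotic gene activation (ZGA).

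The labelled stages were checked with marker genes. All 10 oocyte markers were well above background on all 3 arrays of each condition from GV to the 2-cell stage, and 5 of 10 in blastocysts. Before normalization between arrays, the signals of 10 blastocyst markers summed to 499000 to 634000 signal units in blastocysts and 137000 to 215000 in morulae. In every other condition they summed to 12500 to 46500, although 7 to 10 of the 10 were well above background throughout. A list of 6 markers of the 2-cell stage did not mark it, with 4 of 6 well above background already in GV oocytes and a summed signal of 206000 to 215000 there, against 78700 to 113000 in 2-cell controls. Markers of cumulus and granulosa cells were well above background for 1 to 6 of 10 genes and markers of male germ cells for 1 to 4 of 8. Between 43.7 and 57.4% of the probes on an array were well above background, and 0 spots were saturated. One array stood apart from its group. Control replicate 1 of the 2-cell stage gave lower signals for many of the listed genes than the other two control arrays, and the median SD of the 46 genes was 0.45 on the log2 scale in 2-cell controls, against 0.05 to 0.14 in the other 12 conditions. The main results that use this array are therefore given with and without it, and no gene that passed changed sign without it. Shares and medians over all genes are given with this array included, and counts without it have no such share beside them.

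Promoters of these genes were looked up because many of the genes moved together at the 2-cell stage. RefSeq promoters (build GRCm38.p6) were listed for 40 of the 47 genes, in 47 windows of 250 bases before the start. A GC box (GGGCGG on either strand) was found in 28 of the 47 windows (59.6%), against 32.7% of all 32851 promoters. An ETS-type motif (CCGGAAG, either strand) was found in 9 (19.1%), against 6.91%, and an E-box (CACGTG, a palindrome), the motif that MYC proteins can bind, in 3 (6.38%), against 6.02%. The median GC content of the windows was 56.4%, against 52.4% over all promoters. A window each is printed for Trub2 (a mitochondrial pseudouridine synthase), Nolc1 (a nucleolar chaperone), Polr1e (a Pol I subunit) and Nop16 (a 60S assembly factor). These genes have different roles, and all were lower in treated 2-cell embryos. They were chosen after their values were seen. Capitals mark GC boxes and ETS-type motifs, and a match describes the letters only. Each window is written 5′ to 3′ on the strand of its gene.

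Trub2 lies on the minus strand at chr2:29787672-29787921, Nolc1 on the plus strand at chr19:46075597-46075846, Polr1e on the plus strand at chr4:45018359-45018608 and Nop16 on the minus strand at chr13:54590075-54590324. The Trub2 window held none of the 3 motifs, Nolc1 held 2 GC boxes and 1 ETS-type motif, and Polr1e and Nop16 held 1 GC box each.
Trub2: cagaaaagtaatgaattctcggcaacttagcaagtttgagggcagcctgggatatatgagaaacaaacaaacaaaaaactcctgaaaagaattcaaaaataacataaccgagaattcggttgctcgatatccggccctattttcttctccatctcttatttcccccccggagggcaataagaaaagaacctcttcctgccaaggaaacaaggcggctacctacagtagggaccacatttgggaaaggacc
Nolc1: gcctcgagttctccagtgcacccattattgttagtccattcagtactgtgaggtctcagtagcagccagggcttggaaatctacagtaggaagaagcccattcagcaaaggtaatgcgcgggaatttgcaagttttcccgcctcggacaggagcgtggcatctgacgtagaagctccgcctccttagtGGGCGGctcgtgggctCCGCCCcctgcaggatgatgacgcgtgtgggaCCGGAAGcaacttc
Polr1e: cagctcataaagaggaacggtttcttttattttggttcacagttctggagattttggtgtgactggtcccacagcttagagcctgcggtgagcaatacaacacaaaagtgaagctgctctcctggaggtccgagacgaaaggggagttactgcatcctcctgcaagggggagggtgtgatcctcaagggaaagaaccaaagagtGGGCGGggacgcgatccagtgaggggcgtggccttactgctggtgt
Nop16: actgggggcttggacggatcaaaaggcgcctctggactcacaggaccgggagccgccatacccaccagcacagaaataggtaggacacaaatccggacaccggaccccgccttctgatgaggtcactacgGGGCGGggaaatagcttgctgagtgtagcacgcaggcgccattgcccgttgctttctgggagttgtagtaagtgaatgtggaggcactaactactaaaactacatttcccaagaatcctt

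In untreated oocytes and embryos the ribosome biogenesis genes fell at oocyte maturation and rose at the 4-cell stage. Levels are given as log2 signal after normalization between arrays, and a log2 fold change (LFC) passed the test when it was at least 1 in size with an adjusted p below 0.05 (limma, Benjamini-Hochberg over all genes). Relative to each gene's own mean over the untreated arrays, the median of the 46 genes lay between 0.46 and 0.51 on the 3 GV arrays and between −1.74 and −1.63 on the MII arrays. It was between −1.17 and −1.004 in 1-cell and between −1.22 and −0.84 in 2-cell controls, then between 0.88 and 1.04 in 4-cell controls. The 8-cell and morula arrays stayed between 0.92 and 1.15, and the blastocyst arrays lay between 0.47 and 0.58. The low stages thus ran from MII to the 2-cell stage, and the arrays of these stages did not overlap those of GV oocytes or of 4-cell embryos and later stages.

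**Figure D1:**
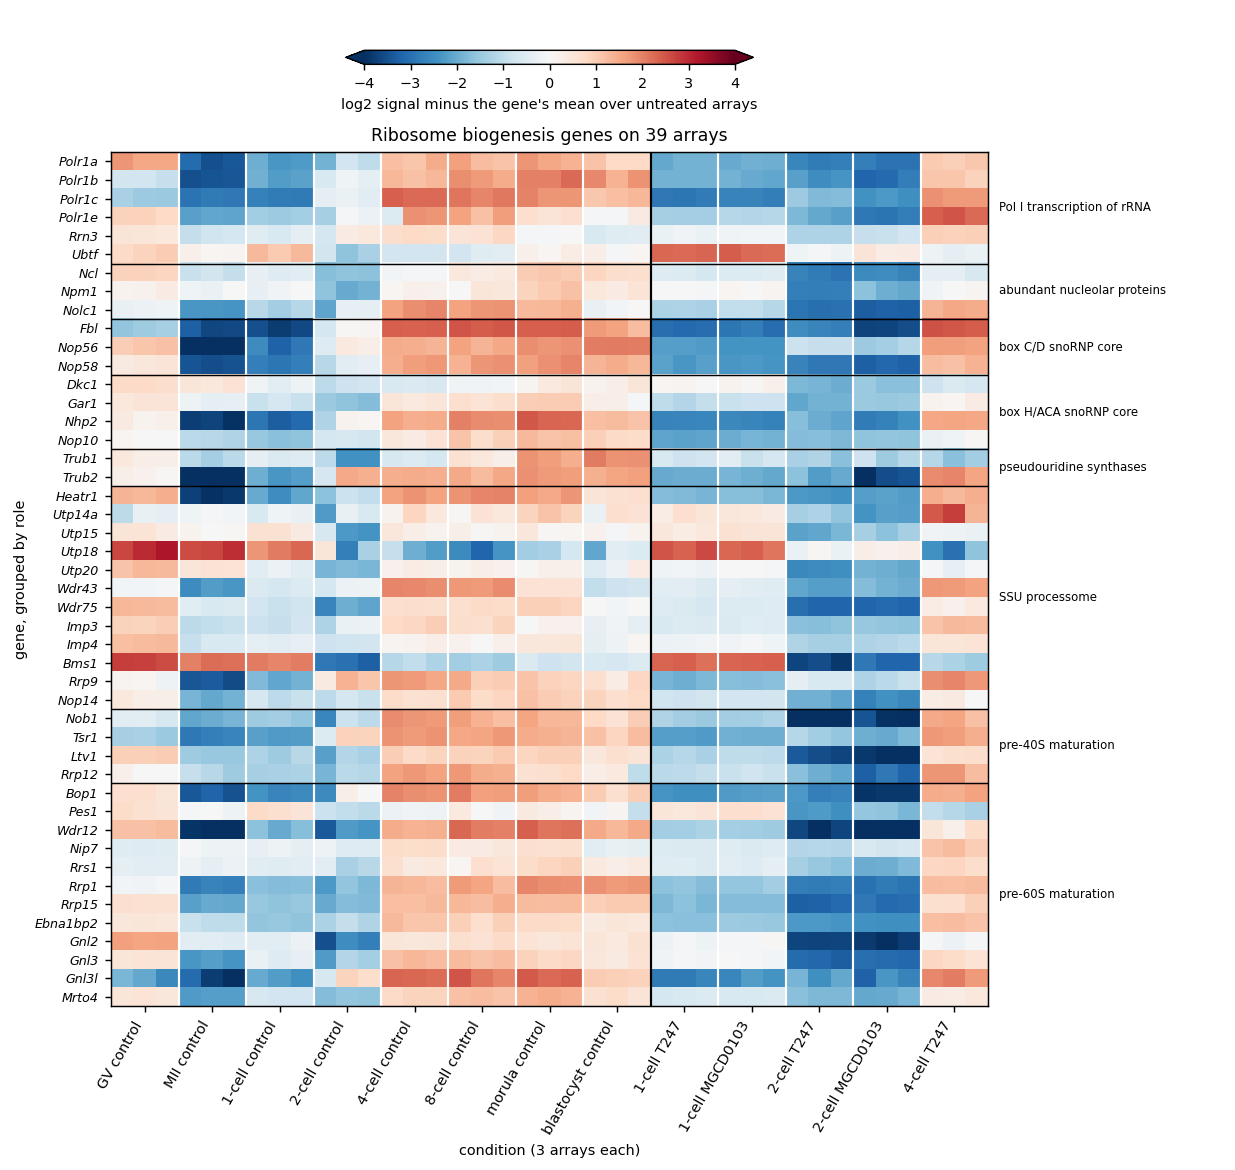
Log2 signal of each of 46 ribosome biogenesis genes, minus the gene's mean over the untreated arrays, on 39 arrays (columns, 3 per condition, untreated stages to the left of the black line and treated conditions to the right), with genes in rows grouped by role. Most rows are blue from MII to the 2-cell stage and red from the 4-cell stage, Bms1 and Utp18 are red up to the 1-cell stage, and most rows are darker blue in 2-cell T247 and MGCD0103 embryos than in 2-cell controls.

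From GV to MII, 34 of the 46 genes fell and 0 rose, where 49.6% of all genes tested passed (48.8% down and 0.729% up). The median LFC was −1.87 for these genes and −0.97 over all genes. Scaling the arrays to their 75th percentile moved the median of all genes to 0.52 and the split to 7 up and 15 down, and quantile normalization moved it to 0.29 and 5 up and 16 down, so the counts depend on the scaling, while the listed genes stayed below the median of all genes by 0.84 to 1.29 under every scaling tried. All 3 box C/D snoRNP core genes fell, as did 5 of 6 Pol I genes, 9 of 12 tested pre-60S genes, 7 of 12 SSU processome genes and all 4 pre-40S genes.

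Of 17 genes with further kept probes, 4 had probes that differed in sign at this step, and 0 had probes that passed in opposite directions. Nop56, a core protein of the box C/D snoRNPs that guide rRNA methylation, had the largest drop, by its brightest probe. Its levels were 14.25, 14.38 and 14.43 in GV oocytes and 8.29, 8.11 and 8.17 in MII oocytes, and the arrays of these stages lay far apart. The LFC was −6.16 (SE 0.16, 71.7-fold, adjusted p = 1.07e-24). Polr1a encodes the largest Pol I subunit and had levels of 13.01, 12.80 and 12.78 in GV and 8.17, 7.72 and 7.86 in MII oocytes. All 3 MII arrays were below all GV arrays, with an LFC of −4.95 (SE 0.19, adjusted p = 1.42e-20). Heatr1, an SSU processome protein also needed for Pol I transcription, went from 14.40, 14.36 and 14.50 to 9.31, 9.10 and 9.18, an LFC of −5.22. Wdr12, which acts with Bop1 and Pes1 in 60S assembly, went from 12.43, 12.45 and 12.53 to 7.35, 7.29 and 7.08, an LFC of −5.23. In each of these genes the spread between arrays was small beside the difference. Dkc1, the catalytic pseudouridine synthase of the H/ACA snoRNPs, had 11.33, 11.34 and 11.28 in GV and 11.05, 11.01 and 11.17 in MII oocytes (LFC −0.24) and did not pass. Npm1 (nucleophosmin, an abundant nucleolar protein) did not pass either, with 16.38, 16.40 and 16.56 against 16.06, 15.98 and 16.21 (LFC −0.36).

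From MII to the 1-cell stage 15 of the genes rose and 0 fell (all genes 17.6% up and 5.67% down, 23.2% in all), with a median LFC of 0.52 against 0.14 over all genes. The risers were 3 Pol I genes, 4 SSU processome genes, 5 pre-60S genes, Nop56, Nolc1 and Trub2. Nop56 reached 10.77, 10.04 and 10.41 in 1-cell controls (LFC 2.22), and Wdr12 reached 9.64, 9.26 and 9.56 (LFC 2.24). Trub2, a mitochondrial pseudouridine synthase, had the largest rise, from 7.55, 7.63 and 7.48 to 10.56, 10.16 and 10.28 (LFC 2.78). No array of one stage reached the range of the other in these 3 genes. All 15 kept their direction on each of the 3 control slides. Of 17 genes with further kept probes, 7 had probes that differed in sign at this step, and 0 had probes that passed in opposite directions. Gnl3l, among the pre-60S risers, was not well above background on any MII array, and its rise was at least 1.11-fold.

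Between the 1-cell and 2-cell stages 12 genes rose and 12 fell (all genes 18.7% up and 33.8% down, 52.5% in all), and the median LFC was −0.08, or 0.05 without 2-cell control replicate 1, against −0.48 over all genes. Without that array 25 genes passed, 23 of them shared with the 24 above, and the split was 16 up and 7 down with the 75th percentile and 17 up and 9 down with quantile normalization. The 3 box C/D core genes all rose, and 5 SSU processome genes and both Ncl and Npm1 fell. Fbl (fibrillarin), the methyltransferase of the box C/D snoRNPs, rose most, from 8.14, 7.87 and 8.03 to 10.96, 11.70 and 11.78 (LFC 3.47, SE 0.15, adjusted p = 9.21e-19). Nhp2, an H/ACA core protein, went from 11.37, 10.96 and 11.15 to 13.05, 14.40 and 14.34 (LFC 2.77). In both genes replicate 1 was the lowest 2-cell array and still lay above every 1-cell array. Bms1, a GTPase of the SSU processome, moved the other way. Its levels were 14.03, 13.998 and 13.90 in GV, 13.27, 13.50 and 13.47 in MII and 13.35, 13.21 and 13.31 in 1-cell controls, then 8.41, 8.28 and 7.997 in 2-cell controls. This drop was 33.4-fold (LFC −5.06, SE 0.11, adjusted p = 5.05e-25) and Bms1 stayed between 9.85 and 10.73 on every later untreated array. For Ncl, Nop56, Pes1 and Ubtf a second probe passed the test in the opposite direction at this step.

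The step from the 2-cell to the 4-cell stage carried the broadest rise. Of the 46 genes 38 rose and 0 fell (all genes 24.7% up and 35.4% down, 60.1% in all), the median LFC was 1.98 against −0.27 over all genes, and on the 3 control slides taken singly the median was 2.24, 1.87 and 2.02. Without 2-cell control replicate 1, 36 genes passed, all among the 38, with a median of 1.89. Every SSU, pre-40S, pre-60S and snoRNP group took part, with 9 of 12 SSU, 4 of 4 pre-40S, 11 of 12 pre-60S, 3 of 3 C/D and 3 of 4 H/ACA genes. Wdr12 rose most, from 7.90, 8.99 and 8.90 to 12.76, 12.66 and 12.70, which was 17.3-fold (LFC 4.11, SE 0.18, adjusted p = 8.64e-19). Nob1, the nuclease that makes the last cut of the small-subunit rRNA, went from 6.17, 7.91 and 7.72 to 10.67, 10.54 and 10.48 (LFC 3.30, 9.83-fold). The 4-cell arrays of both genes lay above all 2-cell arrays. Trub2 did not pass (LFC 0.72), and 2 of its 2-cell control arrays, at 14.01 and 13.92, were already at the 4-cell level of 13.97, 13.99 and 13.95.

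Fewer genes passed at later stages. From the 4-cell to the 8-cell stage only Trub1 rose (1 of 46, where 15.2% of all genes passed, 8% up and 7.18% down), and from the 8-cell stage to the morula Trub1 and Utp18 rose and Wdr43 fell (37.5% of all genes passed, 31.1% up and 6.43% down). The split at that step was 0 up and 10 down when the arrays were scaled to their 75th percentile. For Utp18, which was not well above background on any 8-cell array, the rise was at least 1.2-fold. In blastocysts 5 genes were lower than in morulae and 0 higher (27.6% of all genes passed, 19.9% up and 7.68% down), namely Nolc1 (LFC −1.47), Wdr43 (LFC −1.43), Gnl3l (LFC −1.39), Nhp2 (LFC −1.17) and Heatr1 (LFC −1.03). The median LFC at that step was −0.43 against 0.23 over all genes, and 36 of the 46 genes had all blastocyst arrays below all morula arrays, as did 20.8% of all genes (40.8% lay above). With the 75th percentile scaling 0 genes were higher and 12 lower at this step. Nhp2 had its highest levels in morulae, at 16.75, 16.60 and 16.57, and Heatr1 in 8-cell embryos, at 14.84, 14.98 and 15.04. By stage mean, 15 genes were highest in morulae, 12 in 4-cell embryos and 10 in GV oocytes, and 24 were lowest in MII oocytes and 17 in 2-cell embryos. The range of stage means ran from 1.21 for Nip7 to 7.14 for Nop56, with Trub2 (6.69), Wdr12 (6.27), Nhp2 (6.19), Fbl (6.11), Heatr1 (5.76) and Bms1 (5.74) next. The measured stage means put Gnl3l, a nucleolar GTPase, among these 8 genes as well, but its range has no exact value because it was dim at the start. Its levels were 4.72, 4.49 and 3.98 in GV, 3.47, 2.76 and 2.19 in MII, 4.55, 4.30 and 4.10 in 1-cell, 5.91, 7.45 and 7.25 in 2-cell and 8.88, 8.85 and 8.80 in 4-cell controls. No MII array was well above background for it, so that its drop from GV was at least 1.17-fold.

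In treated 1-cell embryos, 2 h after the inhibitors were removed, few of the genes passed the test against the controls. With T247, 1 gene rose and 0 fell (6.67% of all genes passed, 5.69% up and 0.98% down), with a median LFC of 0.12 against −0.0004 over all genes. With MGCD0103, 1 gene rose and 0 fell (4.34% passed, 3.58% up and 0.76% down), with a median of 0.23 against 0.10. The gene was Ubtf, by its brighter probe, in both comparisons, which share their control arrays. With T247 all treated arrays lay above all controls in 20 of the 46 genes (25.9% of all genes) and below them in 9 (27.1%). With MGCD0103 they lay above in 27 (33.2%) and below in 3 (16.3%). Fbl was at 8.63, 8.54 and 8.61 with T247 and 8.76, 8.89 and 8.61 with MGCD0103 (LFC 0.58 and 0.74), above all 3 control arrays but short of the size asked for.

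At the 2-cell stage the ribosome biogenesis genes fell in embryos treated with either HDACi. With T247, 27 of the 46 genes fell and 1 rose, where 25.4% of all genes passed (16.5% down and 8.89% up), and with MGCD0103, 26 fell and 2 rose, where 28% passed (15.7% down and 12.3% up). The median LFC of the genes was −1.15 with T247, against −0.27 over all genes, and −1.19 with MGCD0103, against 0.06. Without 2-cell control replicate 1 the genes that passed numbered 35 with T247 (32 down) and 33 with MGCD0103 (30 down), they included all those above, and the medians were −1.27 and −1.34. The share of all genes that passed without that array is not given here, and the higher counts are not read as a larger effect on these genes. In each comparison 38 genes had all treated arrays below all control arrays, as did 37.3% of all genes with T247 and 27.3% with MGCD0103. Both comparisons use the same 3 control arrays. Of 17 genes with further kept probes, 3 had probes that differed in sign with T247 and 5 with MGCD0103. Only Ubtf had probes that passed in opposite directions, with either inhibitor. When the arrays were scaled to their 75th percentile, the median of all genes with T247 moved to 0.20 and the split to 3 up and 14 down. The median LFC stayed below that of all genes by 0.71 to 0.90 with T247 and by 1.00 to 1.30 with MGCD0103 under the scalings tried.

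**Figure D2:**
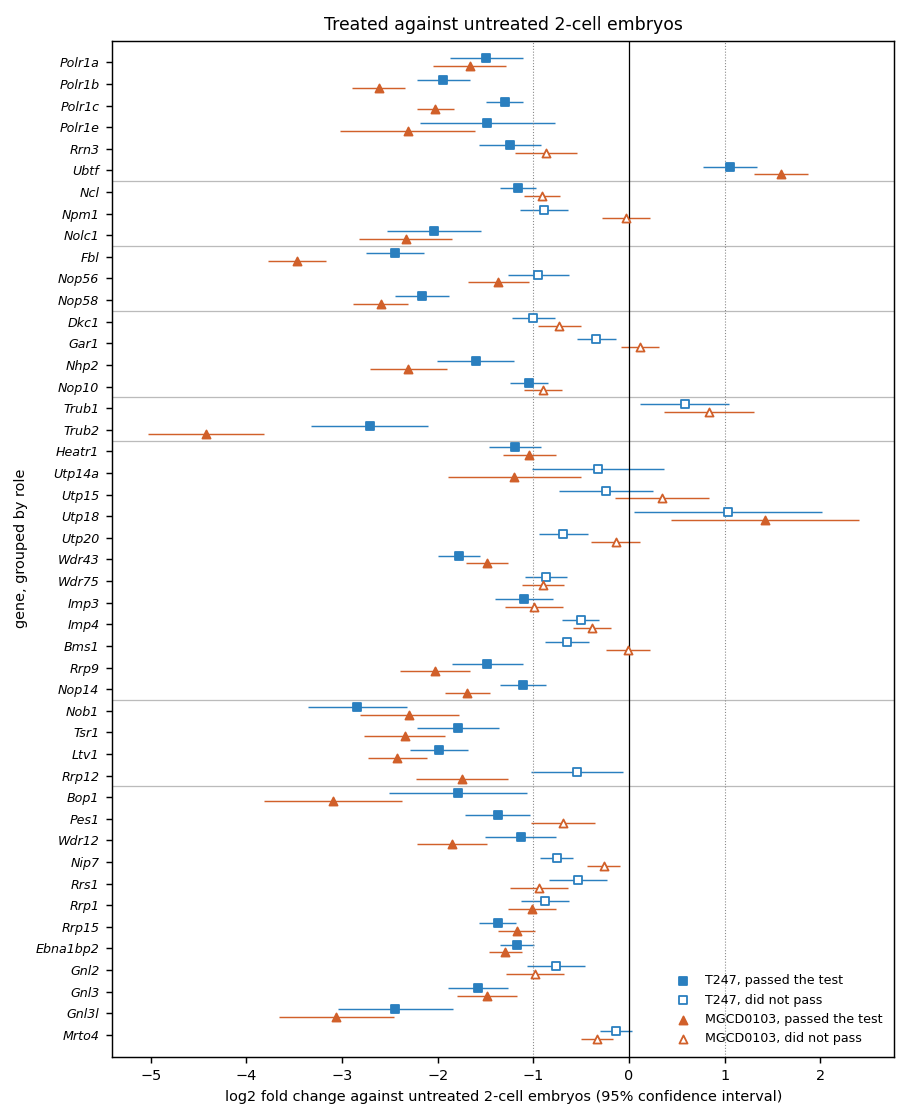
Log2 fold change (horizontal axis, with its 95% confidence interval) of 46 ribosome biogenesis genes in 2-cell embryos treated with T247 (squares) or MGCD0103 (triangles) against untreated 2-cell embryos, 3 arrays per group. Filled symbols passed the test, 28 of 46 with either inhibitor. Most symbols lie to the left of 0, Trub2 with MGCD0103 lies farthest left at −4.42, and Ubtf and Utp18 lie to the right.

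Summed signals of the marker lists were compared at this stage. These sums were taken before normalization between arrays, so the brightness of a whole array enters them. The 10 oocyte markers summed to 215000 to 247000 signal units on the control arrays, 154000 to 176000 with T247 and 204000 to 250000 with MGCD0103, with 10 of 10 well above background in each group. Markers of cumulus and granulosa cells summed to 13300 to 14400, 7280 to 8780 and 10300 to 11500, with 2, 3 and 2 of 10 well above background and Amh, Fshr, Inha, Inhba, Lum, Ptx3 and Tnfaip6 not so in any of these groups. Markers of male germ cells summed to 1020 to 1320, 630 to 899 and 1300 to 1460, with 2, 4 and 3 of 8 well above background, and those of the 2-cell stage to 78700 to 113000, 67400 to 73800 and 82200 to 98200. Blastocyst markers summed to 12500 to 16300, 14900 to 16200 and 15900 to 20500. The T247 arrays thus lay below the controls for the oocyte, cumulus, male germ cell and 2-cell lists, and the MGCD0103 arrays for the cumulus list only among these. Their part in the results was not tested.

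Of the 6 Pol I genes, 5 fell with T247 (median LFC −1.39) and 4 of 6 with MGCD0103 (median −1.85). Polr1a had levels of 9.35, 10.47 and 10.23 in controls, 8.63, 8.45 and 8.50 with T247 and 8.49, 8.28 and 8.28 with MGCD0103. All treated arrays were below all control arrays, and T247 gave an LFC of −1.49 (adjusted p = 8.06e-08), or −1.83 without control replicate 1. With MGCD0103 it was −1.67 (adjusted p = 1.02e-08), or −2.00 without that array. Polr1b, the other large catalytic subunit, had an LFC of −1.94 and −2.62, and Polr1c, a subunit shared with RNA polymerase III, of −1.30 and −2.03. Polr1e had 9.26, 10.52 and 10.34 in controls, 8.76, 8.51 and 8.39 with T247 (LFC −1.48) and 7.70, 7.66 and 7.81 with MGCD0103 (LFC −2.31). Its second probe gave an LFC of −1.58 and −2.33. Rrn3, the factor that makes Pol I competent to initiate, fell with T247 (LFC −1.24) and had an LFC of −0.87 with MGCD0103.

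Ubtf (UBF), which keeps rRNA gene chromatin open for Pol I, was measured by 2 probes that moved in opposite directions. The brighter probe, which stands for the gene in all counts here, lies at mm9 chr11:102166995-102167054 and gave 16.81, 16.54 and 16.81 in 1-cell controls, 17.81, 17.78 and 17.83 with T247 and 17.91, 17.78 and 17.77 with MGCD0103. At the 2-cell stage it gave 14.76, 13.89 and 14.20 in controls, 15.33, 15.42 and 15.28 with T247 and 16, 15.80 and 15.83 with MGCD0103. All treated arrays were above all control arrays at both stages. The LFC was 1.08 with T247 and 1.09 with MGCD0103 at the 1-cell stage, and 1.06 (adjusted p = 1.77e-07) and 1.59 (adjusted p = 7.4e-11) at the 2-cell stage. The dimmer probe, at mm9 chr11:102167265-102167324, gave 10.05, 10.85 and 10.72 in 2-cell controls, 7.94, 8.00 and 7.94 with T247 and 7.07, 7.002 and 7.07 with MGCD0103. Here all treated arrays were below all control arrays (LFC −2.58, adjusted p = 1.35e-13, and −3.49, adjusted p = 1.76e-16), as for most of the other genes, and at the 1-cell stage the LFC was −0.17 and −0.21. Both probes were well above background on all 39 arrays. The brighter probe holds a run of 29 alternating T and G bases among its 60, and the dimmer one a longest run of 3. Of the 72 probes for the listed genes it was the only one with such a run of 20 bases or more. These arrays give no single direction for Ubtf.

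**Figure D3:**
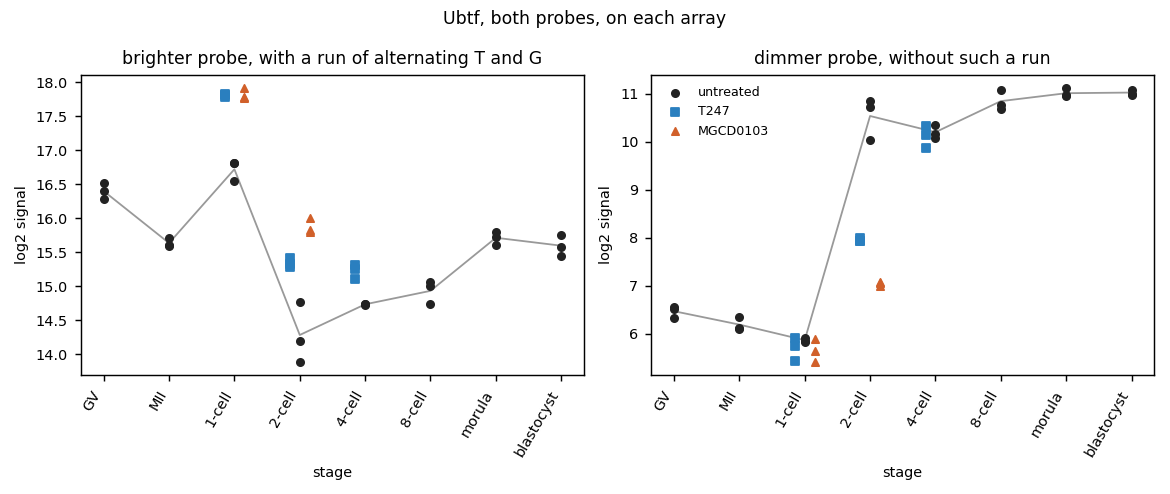
Log2 signal of the brighter (left) and dimmer (right) Ubtf probe on each array, by stage, for untreated (circles), T247-treated (squares) and MGCD0103-treated (triangles) oocytes and embryos. At the 2-cell stage the treated arrays lie above the controls for the brighter probe and below them for the dimmer one.

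Among the abundant nucleolar proteins, Nolc1 fell with both inhibitors, from 12.07, 13.88 and 13.82 in controls to 11.28, 11.17 and 11.21 with T247 (LFC −2.04, adjusted p = 2.97e-08) and 10.88, 10.95 and 10.93 with MGCD0103 (LFC −2.34, adjusted p = 2.09e-09). All treated arrays were lower, and without control replicate 1 the LFC was −2.63 and −2.93. A second Nolc1 probe gave −1.004 and −0.32. Ncl (nucleolin) had 12.96, 13.06 and 13.02 in controls, 11.99, 11.86 and 11.71 with T247 and 12.12, 12.19 and 12.00 with MGCD0103. It fell with T247 (LFC −1.16, SE 0.09, adjusted p = 1.67e-11), and with MGCD0103 the LFC of −0.91 missed the size asked for. A second Ncl probe, well above background on 26 arrays, gave 0.58 and 0.53. Npm1 had 14.61, 14.21 and 14.34 in controls, 13.51, 13.48 and 13.51 with T247 and 14.60, 14.27 and 14.18 with MGCD0103. The MGCD0103 arrays overlapped the controls (LFC −0.03), while the T247 arrays lay below them (LFC −0.89). The 5 Npm1 probes ranged from −1.19 to −0.23 with T247 and from −0.84 to 0.38 with MGCD0103.

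The snoRNP core genes showed some of the largest differences. Fbl was at 10.96, 11.70 and 11.78 in control 2-cell embryos, 9.17, 8.998 and 8.93 with T247 and 7.94, 7.99 and 8.09 with MGCD0103. The 3 groups did not overlap, and the MGCD0103 arrays were in the range of the control 1-cell arrays. The drop was 5.46-fold with T247 (LFC −2.45, SE 0.15, adjusted p = 9.19e-14) and 11.1-fold with MGCD0103 (LFC −3.47, SE 0.15, adjusted p = 8.03e-17), and the LFC was −2.71 and −3.73 without control replicate 1. Nop58, its partner in the same particle, went from 11.68, 12.34 and 12.46 to 10.12, 9.93 and 9.93 (LFC −2.17) and 9.52, 9.63 and 9.54 (LFC −2.60). Nop56 went from 12.75, 13.66 and 13.54 to 12.41, 12.36 and 12.35 with T247 (LFC −0.95) and 11.82, 11.90 and 12.13 with MGCD0103 (LFC −1.37). With T247 it missed the size asked for, and it passed without control replicate 1 (LFC −1.23). Of the H/ACA core, Nhp2 fell to 12.55, 12.27 and 12.17 (LFC −1.60) and 11.46, 11.55 and 11.86 (LFC −2.31), Nop10 fell with T247 (LFC −1.04), and Gar1 had an LFC of −0.34 and 0.11. Dkc1 had 9.52, 9.76 and 9.81 in controls, 8.79, 8.71 and 8.58 with T247 and 9.10, 8.91 and 8.90 with MGCD0103. Its treated arrays were all lower, but the LFC was just short of −1 with T247 and −0.73 with MGCD0103.

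Trub2, which encodes a mitochondrial and not a nucleolar enzyme, had the largest drop with MGCD0103. Its levels were 11.82, 14.01 and 13.92 in controls, 10.85, 10.27 and 10.48 with T247 and 8.47, 8.95 and 9.05 with MGCD0103. Control replicate 1 was far below the other two control arrays but above every treated array. The drop was 6.55-fold with T247 (LFC −2.71, SE 0.30, adjusted p = 8.49e-09) and 21.5-fold with MGCD0103 (LFC −4.42, SE 0.30, adjusted p = 4.19e-13), and the LFC was −3.43 and −5.14 without that array. A second Trub2 probe gave −1.82 and −2.27, and the mean of both probes gave −3.40 with MGCD0103. Trub1, its nuclear paralog, had an LFC of 0.58 and 0.84 and did not pass, but it passed without that array (LFC 1.04 and 1.29). It was dim in 2-cell controls, with 2 of 3 arrays well above background.

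**Figure D4:**
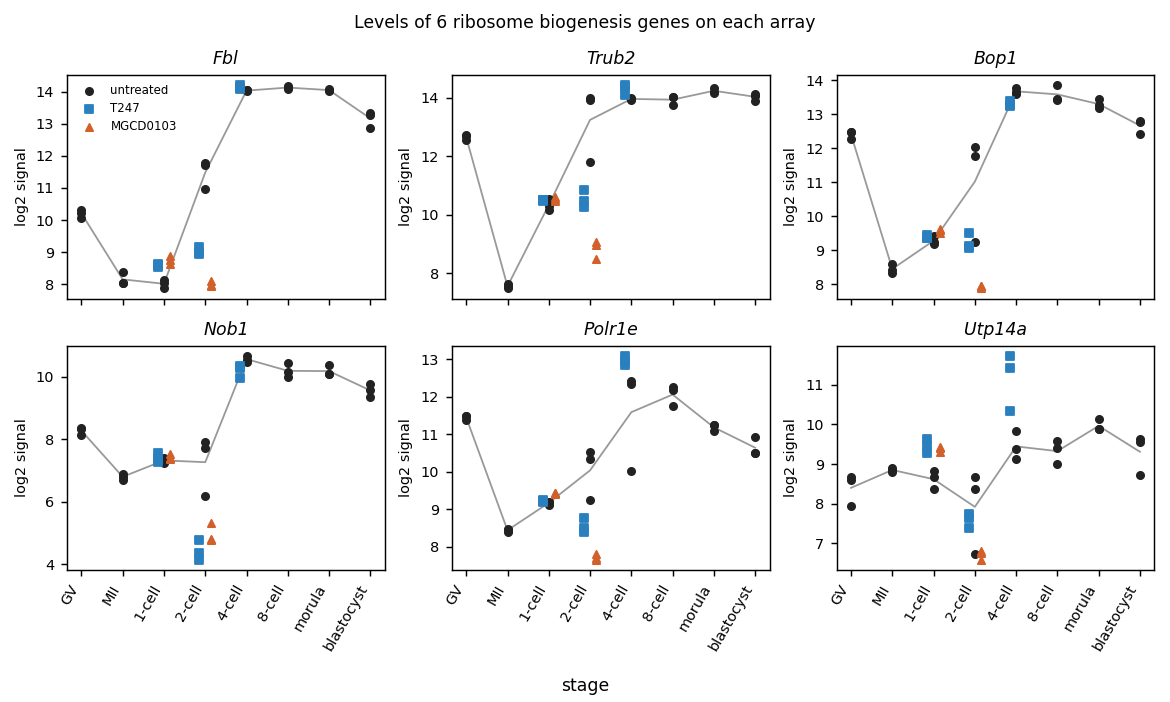
Log2 signal of Fbl, Trub2, Bop1, Nob1, Polr1e and Utp14a on each array, by stage, for untreated (circles, with a line through the stage means), T247-treated (squares) and MGCD0103-treated (triangles) oocytes and embryos. The vertical scale differs between panels. In 2-cell embryos the treated arrays of Fbl, Trub2, Nob1 and Polr1e lie below all control arrays, and in Bop1 and Utp14a one control array lies among the treated ones.

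Of 12 SSU processome genes, 5 fell with T247 (median LFC −0.78) and 5 fell and 1 rose with MGCD0103 (median −0.95). Heatr1 had 11.41, 12.18 and 12.05 in controls, 10.75, 10.72 and 10.61 with T247 (LFC −1.19, adjusted p = 1.32e-08) and 10.83, 10.89 and 10.80 with MGCD0103 (LFC −1.04, adjusted p = 1.44e-07). Every treated array was below every control array. Wdr43 (LFC −1.78 and −1.48), Rrp9 (LFC −1.48 and −2.03) and Nop14 (LFC −1.11 and −1.69) fell with both inhibitors and Imp3 with T247 (LFC −1.09). Bms1, already low in 2-cell controls, had an LFC of −0.65 and −0.01. Utp18 was dim in 2-cell controls, at 6.19, 2.97 and 4.40 with 2 of 3 arrays well above background. With T247 it was at 5.43, 5.79 and 5.45 (LFC 1.03, adjusted p = 0.0693) and with MGCD0103 at 5.98, 5.87 and 5.98 (LFC 1.42, adjusted p = 0.013), and control replicate 1 lay above all treated arrays. Without that array the LFC was 1.87 and 2.26 and passed in both.

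All 4 pre-40S genes fell with MGCD0103 (median LFC −2.32) and 3 of 4 with T247 (median −1.89). Nob1 had the largest drop with T247 as normalized here. It was at 6.17, 7.91 and 7.72 in controls, 4.77, 4.15 and 4.35 with T247 and 5.32, 4.80 and 4.78 with MGCD0103. The treated arrays were below the controls and also below the 1-cell controls, at 7.34, 7.39 and 7.23. The drop was 7.17-fold with T247 (LFC −2.84, SE 0.25, adjusted p = 1.61e-10) and 4.91-fold with MGCD0103 (LFC −2.30, adjusted p = 8.46e-09), and the LFC was −3.39 and −2.84 without control replicate 1. With normexp background correction the LFC with T247 was −1.34, and those of Trub2 (−2.66) and Fbl (−2.35) were then larger in size. Ltv1, a pre-40S export factor, had an LFC of −1.98 and −2.42, and Tsr1, a GTPase-like pre-40S factor, of −1.79 and −2.35.

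Of 12 tested pre-60S genes, 7 fell with each inhibitor (median LFC −1.15 with T247 and −1.10 with MGCD0103). Bop1, the scaffold of the complex with Pes1 and Wdr12, was at 9.24, 12.03 and 11.78 in controls, 9.502, 9.06 and 9.13 with T247 and 7.87, 7.95 and 7.95 with MGCD0103. Control replicate 1 lay among the T247 arrays, while all MGCD0103 arrays were below all controls. The LFC was −1.79 with T247 (SE 0.35, adjusted p = 8.52e-05), or −2.67 without that array, and −3.09 with MGCD0103 (SE 0.35, adjusted p = 1.55e-08, 8.54-fold), or −3.98 without it. Wdr12 was at 7.90, 8.99 and 8.90 in controls, 7.61, 7.20 and 7.59 with T247 (LFC −1.13) and 6.71, 6.66 and 6.88 with MGCD0103 (LFC −1.85). Pes1 fell with T247 (LFC −1.37) and had an LFC of −0.69 with MGCD0103. Gnl3 (nucleostemin) was at 8.99, 10.07 and 9.89 in controls, 8.16, 8.11 and 7.94 with T247 (LFC −1.58, adjusted p = 7.94e-10) and 8.23, 8.17 and 8.10 with MGCD0103 (LFC −1.48, adjusted p = 2.5e-09). All treated arrays of Gnl3 were below all controls. Gnl3l, at 5.91, 7.45 and 7.25 in controls, was at 4.70, 4.08 and 4.49 with T247 (LFC −2.44) and 3.33, 4.23 and 3.87 with MGCD0103 (LFC −3.06), where 2 of 3 arrays were well above background. Mrto4 (LFC −0.13 and −0.33) and Nip7 (LFC −0.76 and −0.26) did not pass.

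Nop16 did not pass the filter because its signal was not positive and significant on any 1-cell array, treated or untreated. Before normalization its log2 signal was 3.89 to 5.06 in GV oocytes and 1.81 to 1.89 in MII oocytes. It was 9.72 to 10.27 in 2-cell controls, 7.73 to 8.25 with T247 and 6.53 to 7.55 with MGCD0103, and 11.58 to 11.72 in 4-cell controls against 11.47 to 11.81 with T247. The 3 groups of 2-cell arrays did not overlap, and at the 4-cell stage the T247 arrays spanned the controls. In a fit with the filter loosened, its LFC at the 2-cell stage was −2.04 with T247 (adjusted p = 5.45e-09) and −3.06 with MGCD0103 (adjusted p = 1.4e-12). Its 4-cell LFC was −0.04. The same fit gave an LFC of 1.21 from GV to MII, opposite to the order of the signals before normalization, and the MII values in it were filled in, so the fit is read only where all arrays were well above background.

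The inhibitors were compared directly at the same dose and time. At the 1-cell stage 0 of the 46 genes differed (0.333% of all genes passed, 0.0691% up and 0.264% down), with 0 at an adjusted p below 0.05 at any size. At the 2-cell stage MGCD0103 was lower than T247 in 4 genes and higher in 0 (6.45% of all genes passed, 2.91% down and 3.54% up), with a median LFC of −0.13 against 0.25 over all genes. This count was 9 with quantile normalization and 2 with normexp background correction. These were Trub2 (LFC −1.71, 95% confidence interval −2.32 to −1.10, adjusted p = 8.04e-05), Bop1 (−1.31, −2.03 to −0.59, adjusted p = 0.00495), Rrp12 (−1.20, −1.68 to −0.72, adjusted p = 0.000276) and Fbl (−1.03, −1.33 to −0.72, adjusted p = 7.09e-06). Rrp12, a factor of pre-40S export, was at 6.80, 6.52 and 6.40 with T247 and 5.21, 5.64 and 5.27 with MGCD0103, against 6.63, 7.40 and 7.33 in controls. In all 4 genes every MGCD0103 array was below every T247 array. For Nob1 the difference was 0.54 (0.03 to 1.06, adjusted p = 0.0909) and for Npm1 0.85 (0.60 to 1.11, adjusted p = 8.26e-06), neither of which passed. For Heatr1 it was 0.15 (−0.13 to 0.42).

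The change of the treatment effect between stages was tested as an interaction. Between the 1-cell and 2-cell stages the T247 LFC became more negative for 30 genes and more positive for 0 (20.1% of all genes passed, 4.65% up and 15.4% down), and the MGCD0103 LFC became more negative for 30 and more positive for 1, Trub1 (22.9% passed, 6.87% up and 16.1% down). The median change was −1.22 with T247, against −0.28 over all genes, and −1.43 with MGCD0103, against −0.05. Between the 2-cell and 4-cell stages the T247 LFC became more positive for 22 genes and more negative for Trub1 and Utp18 (27.5% passed, 19.3% up and 8.24% down), with a median change of 0.93 against 0.29. Without 2-cell control replicate 1 the effect changed in 35, 33 and 27 genes over the 3 steps, in the order given. The comparisons share the 2-cell control arrays.

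At the 4-cell stage the T247 embryos were closer to the controls than at the 2-cell stage. On single arrays the median of the 46 genes, relative to each gene's untreated mean, was 0.94 to 1.00 with T247 and 0.88 to 1.04 in controls, whereas at the 2-cell stage it had been −2.22 to −2.06 with T247, −2.42 to −2.31 with MGCD0103 and −1.22, −0.84 and −0.99 in controls. With T247, 2 genes rose and 0 fell (18% of all genes passed, 11.5% up and 6.52% down), or 2 rose and 2 fell with quantile normalization, and the median LFC was −0.24 against −0.01. All T247 arrays lay below all controls in 25 of the 46 genes (30.9% of all genes) and above them in 11 (28.7%). At an adjusted p below 0.05 and any size, 15 genes were lower and 6 higher (24.1 and 23.8% of all genes). Fbl was at 14.21, 14.12 and 14.08 with T247 and 14.04, 14.02 and 14.04 in controls (LFC 0.11), Bop1 at 13.28, 13.25 and 13.40 against 13.78, 13.66 and 13.59 (LFC −0.37), and Nob1 at 10.29, 10.34 and 9.95 against 10.67, 10.54 and 10.48 (LFC −0.37). Wdr12, at 11.75, 11.46 and 12.01 against 12.76, 12.66 and 12.70, kept the most negative LFC (−0.97, adjusted p = 6.62e-05), short of the size asked for.

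**Figure D5:**
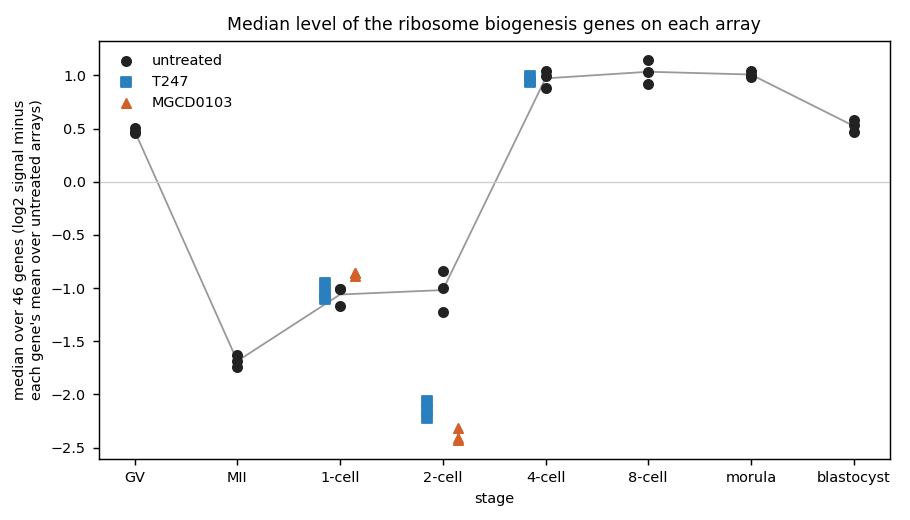
Median over 46 ribosome biogenesis genes of the log2 signal minus each gene's mean over untreated arrays, for each of the 39 arrays, by stage, for untreated (circles), T247-treated (squares) and MGCD0103-treated (triangles) samples. The treated 2-cell arrays lie between −2.42 and −2.06, below the control 2-cell arrays and below the MII arrays, and the 4-cell T247 arrays lie among the controls.

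The genes that rose at the 4-cell stage were Utp14a, an SSU processome protein, and Polr1e. Utp14a was at 11.44, 11.73 and 10.35 with T247 and 9.12, 9.82 and 9.39 in controls, and the groups did not overlap. It rose 3.31-fold (LFC 1.73, SE 0.34, adjusted p = 0.00012), with 1.45 to 2.14 when any single array was left out, and a second probe gave 0.97. At the 2-cell stage Utp14a was at 6.72, 8.67 and 8.36 in controls, 7.64, 7.74 and 7.39 with T247 (LFC −0.33) and 6.59, 6.80 and 6.77 with MGCD0103 (LFC −1.20), with control replicate 1 among the treated arrays. The second probe gave −1.71 and −2.01 at that stage. Polr1e was at 12.96, 13.09 and 12.83 with T247 and 10.02, 12.40 and 12.34 in 4-cell controls, of which replicate 1 was far below the others. Its LFC was 1.37 (SE 0.35, adjusted p = 0.00169), and it was 0.59 (adjusted p = 0.0262) and did not pass without that array. A second Polr1e probe gave 0.49.

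A further 135 genes of ribosome biogenesis were listed beside these, and 128 of them could be tested. In 2-cell embryos 74 of the 128 fell and 5 rose with T247 (median LFC −1.18, against 16.5% of all genes down, 8.89% up and a median of −0.27), and 66 fell and 6 rose with MGCD0103 (median −1.03, against 15.7% down, 12.3% up and a median of 0.06). The largest drops with T247 were in Znhit3 (LFC −3.37), an assembly factor of box C/D snoRNPs, Tbl3 (LFC −3.34) and Utp4 (LFC −2.73), both SSU processome proteins. With MGCD0103 they were in Znhit3 (LFC −3.59), Nop2 (LFC −3.45), a methyltransferase of the large-subunit rRNA, and Ddx31 (LFC −3.38), an RNA helicase. Exosc9, a subunit of the RNA exosome, Nufip1, a snoRNP assembly factor, and Utp6 rose with both (LFC 1.16, 1.69 and 1.05 with T247, and 1.58, 1.30 and 1.02 with MGCD0103). At the 1-cell stage 2 of the 128 rose with T247 (Exosc9 and Utp6), a share of 1.56% against 6.67% of all genes called. With MGCD0103, 2 rose and 1 fell (Exosc9 and Utp6 up, Nol11 down), 2.34% against 4.34%. At the 4-cell stage 1 rose (Nufip1, LFC 1.68) and 2 fell (Taf1b, LFC −1.25, and Myc, LFC −1.004) with T247, 2.34% against 18% of all genes. In untreated samples 78 of the 128 fell and 1, Mdn1, rose from GV to MII (LFC 2.94 for Mdn1), where 48.8% of all genes fell and 0.729% rose. Between the 2-cell and 4-cell stages 94 rose (median LFC 1.76, against 24.7% of all genes up and a median of −0.27). Max, Mphosph6, Mxd1, Riok1 and Riok3 fell at that step, where 35.4% of all genes fell. Counts of these further genes were not repeated under other scalings.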

How the data were processed

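Signals of 39 arrays were analysed, 3 for each of 13 conditions, grouped by stage and treatment as given in the sample labels. The authors hybridized Cy3-labelled cRNA to Agilent mouse arrays with probes of 60 bases and deposited, for each array, spot intensity values that were background-subtracted within the array and not normalized between arrays. Their processing notes name Feature Extraction 9.5.1.1 and the file headers 10.7.1.1. The deposited log2 values of the series matrix were used only as an alternative. The number of arrays limits the precision, and p-values measure the spread between arrays, each of a pool of 100 oocytes or embryos. For controls this spread includes that between slides 1 to 3, while the 1-cell and 2-cell replicates of each inhibitor shared a slide. Each gene had a single estimate of this spread, shared by all 13 conditions. The median SD of the listed genes was 0.45 in 2-cell controls and 0.05 to 0.14 elsewhere. For many of these genes, SEs and p-values of comparisons with 2-cell controls therefore understate the spread between those control arrays.

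Probes were named by accession (27235), symbol (3581) or synonym (565), and the 24300 others were dropped. Probes had to be positive and significant on 1 or more arrays in each of the 8 conditions from the 1-cell to the 4-cell stage, which left 21431 named probes, and the brightest one stood for its gene. Other signals (3.86% of values, and for the listed genes only that of Utp18 on 4-cell control replicate 2) were replaced by estimates from a robust covariance between arrays. Smooth quantile normalization, written for this work and tested on simulated data, was followed by limma 3.58.1 in R 4.3.3 over 13 conditions, with Benjamini-Hochberg adjustment within each comparison. The packages data.table (version 1.17.8) and statmod (version 1.5.0) were also used.

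The listed genes, their roles and the other genes of the pathway were chosen with earlier results of these data known. Values on every array are given for the 3 genes that rose most and the 3 that fell most in each treatment comparison among those that passed without overlap between treated and control arrays, for the 8 with the largest range over untreated stages, and for Polr1a, Ubtf, Ncl, Npm1, Fbl, Dkc1, Heatr1, Nob1, Bop1 and Gnl3. Other genes shown array by array (Nop58, Nolc1, Utp18 and Rrp12) and the count of alternating T and G bases were chosen after their values were seen. Where the dimmer group of a gene was not well above background on any array, the fold is a lower bound: the mean of the brighter group against the mean of, per array, the gene's own signal or the lowest signal well above background, whichever was higher. Promoter windows are from RefSeq. Alternatives covered the scaling between arrays, background correction, detection filter, fill-in, choice of probe, arrays fitted, slide and replicate blocks, and each array left out.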

Additional observations from a re-analysis of the deposited data

Results flagged for a closer look

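The effect of each HDACi on the ribosome biogenesis genes differed between stages by the interaction term of the limma fit. The T247 effect changed between the 1-cell and 2-cell stages in 30 of the 46 genes, where 20.1% of all genes passed. The MGCD0103 effect changed over the same step in 31 (22.9% of all genes passed). Between the 2-cell and 4-cell stages the T247 effect changed in 24 (27.5% of all genes passed). With T247 the LFC between the 1-cell and 2-cell stages changed by −1.90 for Bop1, −3.03 for Fbl, −2.93 for Nob1, −1.54 for Polr1e and −2.88 for Trub2. With MGCD0103 it was −3.39 for Bop1, −4.22 for Fbl, −2.41 for Nob1, −2.56 for Polr1e, −4.64 for Trub2 and −1.96 for Utp14a. Between the 2-cell and 4-cell stages the change with T247 was 1.42 for Bop1, 2.56 for Fbl, 2.48 for Nob1, 2.86 for Polr1e, 3.05 for Trub2 and 2.05 for Utp14a. These genes were among those named for their effect at one of the stages compared.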

How the results depend on the processing

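Of the counts of listed genes that passed, those with MGCD0103 at the 2-cell stage, at the steps from MII to 1-cell, 1-cell to 2-cell and 2-cell to 4-cell controls, and those for the changes of effect between stages, stayed within 1.5 times of the count above under every setting tried. With the 75th percentile scaling 17 genes passed with T247 at the 2-cell stage, 22 from GV to MII, 0 from the 4-cell to the 8-cell stage, 10 from the 8-cell stage to the morula and 12 from the morula to the blastocyst. With quantile normalization 0 passed at the 1-cell stage with either HDACi, 4 with T247 at the 4-cell stage, 9 between the inhibitors at the 2-cell stage, 21 from GV to MII and 6 from the 8-cell stage to the morula. With normexp background correction 2 passed between the inhibitors, 0 from the 4-cell to the 8-cell stage and 1 from the 8-cell stage to the morula. With the mean of a gene's probes 0 passed at the 1-cell stage with either HDACi and 1 with T247 at the 4-cell stage, and the LFC of Ubtf at the 2-cell stage turned to −0.74 with T247 and −0.92 with MGCD0103. In a fit of the 24 arrays of treated and control stages alone 1 passed with T247 at the 4-cell stage. The cause of these shifts was not tested.

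Leaving out each array in turn gave 25 to 35 genes with T247 and 25 to 33 with MGCD0103 at the 2-cell stage, 0 to 1 and 1 to 1 at the 1-cell stage, and 1 to 3 with T247 at the 4-cell stage. The ranges were 34 to 34 from GV to MII, 14 to 15 from MII to the 1-cell stage, 24 to 25 from the 1-cell to the 2-cell stage, 36 to 40 from the 2-cell to the 4-cell stage, 0 to 1 from the 4-cell to the 8-cell stage, 3 to 4 from the 8-cell stage to the morula and 4 to 7 from the morula to the blastocyst. They were 0 to 0 and 3 to 4 between the inhibitors at the 1-cell and 2-cell stages, 26 to 35 and 30 to 33 for the change of the T247 and the MGCD0103 effect between the 1-cell and 2-cell stages, and 21 to 27 for that of T247 between the 2-cell and 4-cell stages. The call at the 1-cell stage with T247 was lost without control replicate 2, and that from the 4-cell to the 8-cell stage without 8-cell replicate 1.

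Deviations of treated and control arrays of the same replicate number had r from −0.18 to 0.22. With MGCD0103 at the 2-cell stage r was 0.219, 0.0113 and 0.218. Treated and control arrays lay on different slides, and the numbers were not taken as pairs there. Untreated stages of one number shared a slide, and all 3 correlations were over 0.1 from GV to MII (0.148 to 0.23) and from the 4-cell to the 8-cell stage (0.174 to 0.264). With the replicate number as a block, 28 genes passed with T247 and 28 with MGCD0103 at the 2-cell stage, and 2 with T247 at the 4-cell stage, 34 from GV to MII and 1 from the 4-cell to the 8-cell stage. No other count moved by over 1.5 times.

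Signal over background limits Gnl3l, Utp18 and Trub1, which were not well above background on every array, and Nop16, which was outside the filter. The groups of 3 arrays limit every comparison.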

Other observations

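Probes with a run of 20 or more alternating T and G bases, like the brighter Ubtf probe, numbered 45 of the 21431 kept, a set defined after the Ubtf values were seen. At the 1-cell stage 14 of the 45 rose with T247 and 10 with MGCD0103, where 5.34 and 3.33% of all probes rose, and 0 fell. At the 2-cell stage 11 rose with T247 and 44 with MGCD0103, where 8.09 and 11.3% of all probes rose, and 0 fell. Their median LFC at the 2-cell stage was 0.58 with T247 and 1.25 with MGCD0103, beside 1.06 and 1.59 for the brighter Ubtf probe and −2.58 and −3.49 for the dimmer one. In controls 42 of the 45 rose from MII to the 1-cell stage and 45 fell between the 1-cell and 2-cell stages, where their median LFC was −2.81. The part of such runs in the Ubtf values was not tested.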
